A study of Mus musculus with 14 samples.

Results

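The genes described here encode the hydrolases that work inside the lysosome and the proteins of its membrane. The set was defined by gene name alone: 37 genes, of which 35 had at least 1 probe set annotated to that gene only. These 35 genes were read by 61 of the 22626 probe sets on the arrays that are not controls, or 35 of 12393 genes. The glycosaminoglycan sulfatase Arsb and the tetraspanin Cd63 had no probe set named for them alone and were not analysed here. The measured members are 10 proteases, 8 glycosidases, 7 hydrolases of lipid, phosphate and sulfate esters counted together with the cholesterol carrier Npc2, and 10 membrane proteins. Earlier results of these data were known when the genes were chosen, but no measured value entered the choice.

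The study sorted Sca1+/cKit- cells from the bone marrow of mice and read their RNA on 14 microarrays. Sca1 is a surface antigen of stem cells that many mature marrow cells also carry, and cKit is the receptor of immature progenitors. The Matrigel group (4 arrays) came from mice that bore the basement membrane gel Matrigel without tumour cells. The Instigator group (5 arrays) came from mice with tumours of BPLER, transformed human mammary epithelial cells, and the Non-instigator group (5 arrays) from mice with tumours of PC3, a human prostate carcinoma line. The labels call the BPLER tumours instigating and the PC3 tumours non-instigating, and the tumours were matched for size. Instigating activity and the tissue of origin of the tumour line cannot be told apart in this design. The sources used here give neither mouse strain, age nor sex, and do not say whether each array holds 1 animal or a pool, so p-values measure only the spread between arrays. The description of Instigator 5 names the PC3 tumour, whereas its title and its source label name the BPLER tumour, and it was kept with the Instigator arrays.

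Lysosomes are acid compartments in which proteins, glycans, lipids and nucleic acids are taken apart. Their hydrolases are made in the endoplasmic reticulum and most are carried from the Golgi apparatus by mannose 6-phosphate receptors, while the membrane proteins line the organelle, pump protons and let the products out. Many of the genes carry a CACGTG element, the E-box core of the lysosomal gene network, near the start of transcription, and this is the site that TFEB and related factors bind. In marrow, macrophages, neutrophils and dendritic cells are rich in lysosomes or related granules. In sorted but mixed cells such as these, fewer cells of a type and less RNA per cell cannot be told apart.

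RNA quality and brightness differed between arrays. Instigator 4 had a much lower signal at the 5′ than at the 3′ end of the control transcripts: the 5′ minus 3′ difference of Actb was -3.41 on the log2 scale there and between -0.81 and -0.51 on the other 13 arrays, and that of Gapdh was -4.03 against -1.16 to -0.73. Matrigel 3 held the highest value of 34.0% of all genes. Median intensity ran from 119 on Instigator 4 to 145 on Matrigel 3. Both arrays stayed in all comparisons. Leaving out Matrigel 3 changed the sign of the difference of 10 of 35 members for Instigator against Matrigel and of 9 for Non-instigator against Matrigel. Leaving out Instigator 4 changed it for 2 members for Instigator against Matrigel and for 7 between the tumour groups. Values without these arrays are given for most of the members whose printed difference they moved. The leukocyte gene Ptprc had group means of 11.4 on the log2 scale in each group, and Ly6a, which encodes Sca1, had no probe set named for it alone.

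Promoter sequences were available from RefSeq (GRCm38.p6) for 30 of the 35 measured members, as windows from 250 bases before to 50 bases after the start of transcription. The windows of Ctsb, Ctsh, Asah1, Npc1 and Hgsnat were not used here. The element CACGTG reads the same on both strands, so 1 scan covers both, and 13 of 30 members (43.3%) held it, against 2187 of 27025 genes (8.09%). Counted by window, the shares were 39.4% of 33 windows and 7.15% of 32851. The longer form TCACGTGA, which contains the first and is also a palindrome, stood in 5 members (16.7%: Cln3, Ctsa, Ctsd, Gla and Mcoln1) against 304 genes (1.12%). The other holders of the short form were Arsa, Ctsl, Gaa, Glb1, Lamp1, Lgmn, Naglu and Sgsh. A match describes these letters and shows neither binding nor a cause.

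The stretches below are shown because they carry the element that these genes share, first in members with the longer form and then in Lamp1, which had 4 copies of the short form, and in 3 genes whose array values are described later. Each is read 5′ to 3′ on the strand of its gene, with the element in capitals. The stretch of Ctsa lies at chr2:164833745-164833799 on the plus strand, that of Ctsd at chr7:142387904-142387941 on the minus strand and that of Gla at chrX:134601178-134601248 on the minus strand. Cln3 is read at chr7:126583336-126583400 on the minus strand, Mcoln1 at chr8:3500433-3500495 and Lamp1 at chr8:13159085-13159166, both on the plus strand. Sgsh is read at chr11:119355519-119355554 on the minus strand, Gaa at chr11:119267808-119267843 on the plus strand and Ctsl at chr13:64370736-64370770 on the minus strand.
Ctsa: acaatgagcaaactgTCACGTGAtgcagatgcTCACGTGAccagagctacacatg
Ctsd: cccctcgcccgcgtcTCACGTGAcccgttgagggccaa
Gla: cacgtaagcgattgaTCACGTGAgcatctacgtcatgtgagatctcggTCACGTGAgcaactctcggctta
Cln3: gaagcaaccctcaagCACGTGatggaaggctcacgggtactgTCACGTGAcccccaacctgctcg
Mcoln1: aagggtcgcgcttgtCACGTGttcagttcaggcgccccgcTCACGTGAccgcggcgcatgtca
Lamp1: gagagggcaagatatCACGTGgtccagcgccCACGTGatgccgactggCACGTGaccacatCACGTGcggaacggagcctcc
Sgsh: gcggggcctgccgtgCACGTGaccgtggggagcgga
Gaa: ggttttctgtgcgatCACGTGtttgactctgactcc
Ctsl: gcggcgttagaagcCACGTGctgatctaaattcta

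The first question was whether lysosomal genes of these marrow cells differed between hosts with an instigating tumour and hosts with Matrigel. Of the 35 members, 0 passed limma's test at a Benjamini-Hochberg adjusted p under 0.05 over all probe sets, and the background was also 0%. At an unadjusted p under 0.05, 4 members were higher in the Instigator arrays (11.4%, background 3.63% of all genes) and 1 was lower (2.86%, background 5.16%). Sgsh, Gaa, Lamp2 and Hgsnat were the 4 higher and Ctsl the 1 lower. In 2 members, Sgsh and Hgsnat, the groups did not overlap (5.71%, background 2.33%). The median difference over the members was 0.04 on the log2 scale with 19 of 35 above 0, beside -0.02 over all genes with 45.9% above 0. With each array centred on its median, 27 of 35 members and 64.7% of all genes lay above 0.

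The second comparison set the Non-instigator arrays against the same Matrigel arrays, which the first comparison had used too. Again 0 of 35 members passed limma's test (background 0%). At an unadjusted p under 0.05, 1 member, Hgsnat, was higher (2.86%, background 0.791%) and 1, Ctsh, was lower (2.86%, background 1.17%). Hgsnat was also the 1 member without overlap (2.86%, background 0.75%). The members' median was -0.03 with 15 of 35 above 0, beside -0.04 over all genes with 38.3% above 0. Centring each array on its median turned the members' median to 0.025, with 20 of 35 above 0. Over all genes, that centring gave a median of 0.020 with 56.9% above 0.

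The third comparison asked how the Instigator arrays differed from the Non-instigator arrays, where both groups of hosts bore a tumour. Here too 0 of 35 members passed limma's test (background 0%). At an unadjusted p under 0.05, Ctsc and Lamp2 were the 2 members higher in the Instigator arrays (5.71%, background 2.41%), and 0 were lower (background 2.92%). The 1 member without overlap was Npc2 (2.86%, background 1.15%). The median difference was 0.09 with 27 of 35 members above 0, beside 0.03 over all genes with 58.2% above 0. Without Instigator 4, the members' median was 0.035 and 22 of 35 lay above 0, beside 0.022 over all genes with 57.9% above 0.

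**Figure D1:**
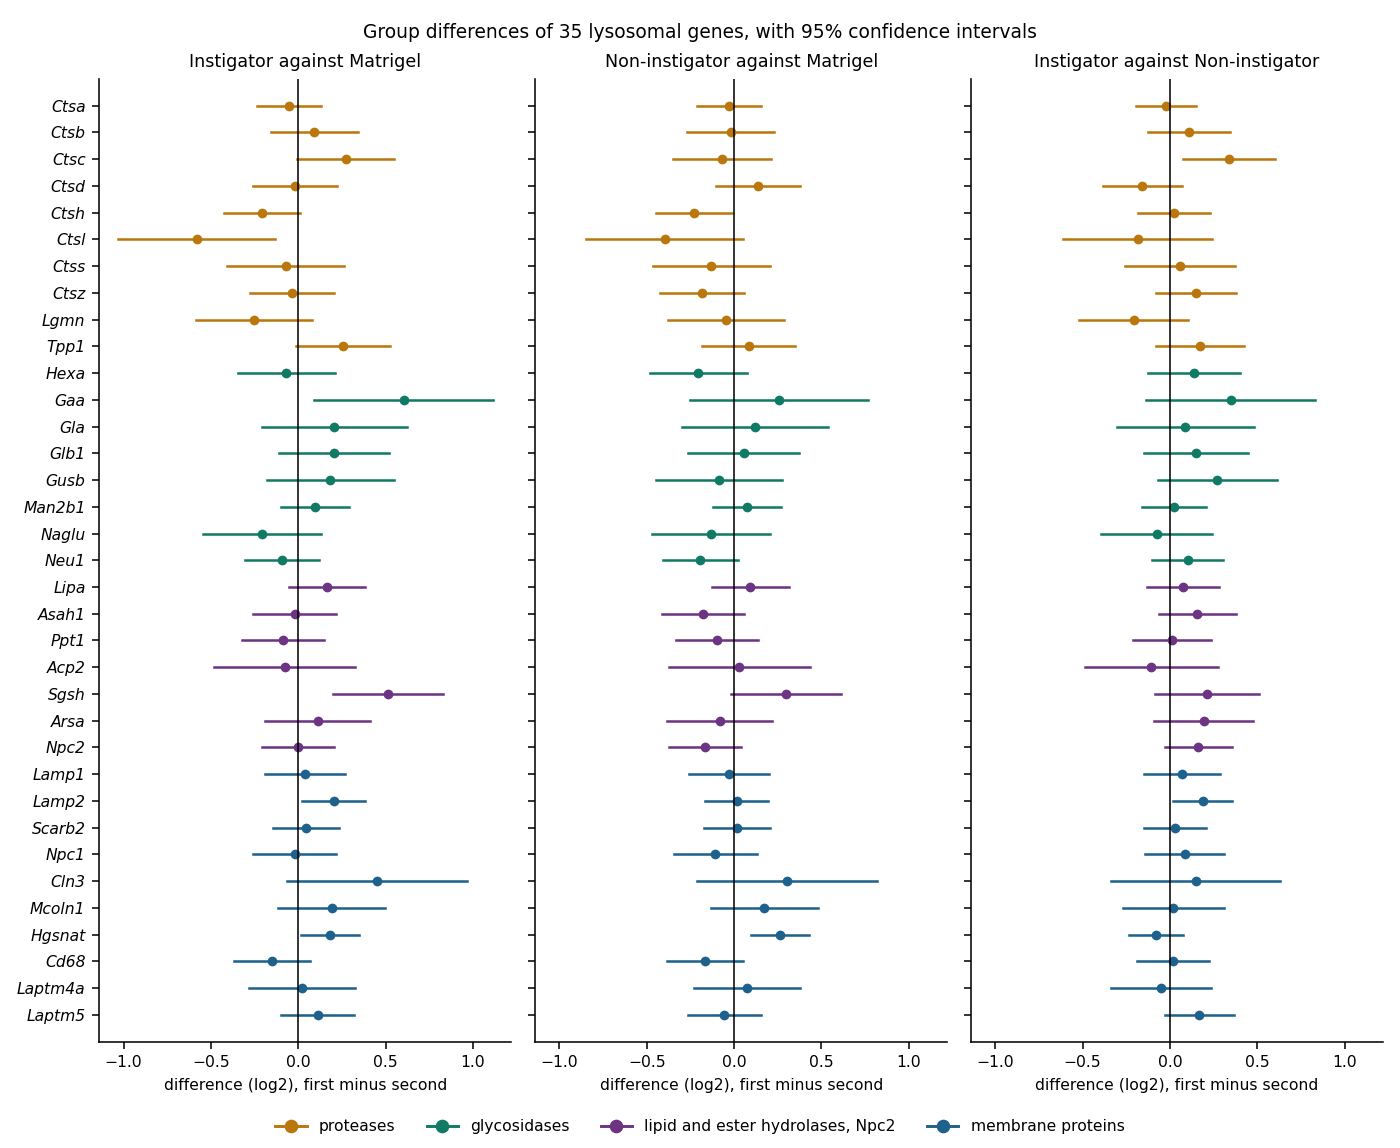
Log2 difference (x axis) of each of the 35 measured lysosomal genes (y axis, by role) in the 3 comparisons, with 95% confidence intervals from limma as bars. Gaa has the highest and Ctsl the lowest value in the comparison of Instigator with Matrigel arrays, and most intervals span 0.

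The intervals limit how large a difference these arrays leave room for. A limit of 0.5 on the log2 scale, chosen after the values were seen, held the whole 95% interval of 24 of 35 members in the comparison of Instigator with Matrigel arrays. It held 30 of 35 for Non-instigator against Matrigel and 28 of 35 for Instigator against Non-instigator. The median width on either side of the estimate was 0.25, 0.25 and 0.24 respectively. Ctsl, Gaa, Sgsh and Cln3 reached beyond the limit in each comparison.

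The proteases had median differences from Matrigel of -0.04 for Instigator (3 of 10 above 0) and -0.06 for Non-instigator arrays (2 of 10 above 0). Without Matrigel 3, 6 and 4 of the 10 lay above 0, and 7 and 5 did once array medians were set equal. Between the tumour groups the median was 0.04, with 6 of 10 higher in the Instigator arrays.

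Ctsl, a cysteine endopeptidase that digests much of the protein delivered to lysosomes, was the member furthest below 0 in both comparisons with Matrigel. Its log2 values were 9.92, 9.96, 10.28 and 9.82 on Matrigel arrays 1 to 4. They were 9.50, 9.89, 9.08, 8.95 and 9.66 on Instigator arrays 1 to 5, and 9.10, 9.87, 9.72, 9.30 and 10.01 on Non-instigator arrays 1 to 5. Matrigel 3 was the highest of the 14 arrays and Instigator 4 the lowest, and the groups overlapped because Instigator 2 lay above Matrigel 4. The difference from Matrigel was -0.58 ± 0.21 (SE) for Instigator arrays, a ratio of 0.67 with an interval from -1.03 to -0.13 and a limma adjusted p of 0.442. It was -0.40 ± 0.21 (SE) for Non-instigator arrays, with a limma adjusted p of 0.986. Without Instigator 4 and Matrigel 3 the first of these was -0.37.

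Ctsc, the dipeptidyl peptidase that activates the granule serine proteases of neutrophils and other killer cells, had the smallest p between the tumour groups. It read 10.42, 10.38, 10.98 and 10.75 on the Matrigel arrays, 10.86, 10.80, 11.17, 11.04 and 10.65 on the Instigator arrays and 10.68, 10.62, 10.48, 10.45 and 10.60 on the Non-instigator arrays. Of the Instigator arrays 4 lay above every Non-instigator array, and Instigator 5 lay within their range. The Instigator mean was 10.9 ± 0.20 (SD, n = 5) and the Non-instigator mean 10.6 ± 0.10 (SD, n = 5). They differed by 0.34 ± 0.12 (SE; interval 0.08 to 0.60), or 1.26-fold, with a limma adjusted p of 0.813. Counting Instigator 5 as a Non-instigator array, as its description reads, gave 0.39. Against Matrigel the difference was 0.27 for Instigator and -0.07 for Non-instigator arrays, and the latter was 0.048 without Matrigel 3.

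Ctsh, an aminopeptidase among the cathepsins, had values of 10.52, 10.76, 10.89 and 10.76 on the Matrigel arrays, 10.61, 10.70, 10.40, 10.57 and 10.34 on the Instigator arrays and 10.37, 10.57, 10.54, 10.37 and 10.67 on the Non-instigator arrays. Matrigel 1 lay inside the ranges of both tumour groups and the other 3 Matrigel arrays lay above every array of both tumour groups. The difference of Non-instigator from Matrigel arrays was -0.23 ± 0.10 (SE; interval -0.45 to -0.01; limma adjusted p 0.986), and that of Instigator from Matrigel arrays was -0.21. The 2 tumour groups differed in it by 0.02.

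For the other 7 proteases, differences of Instigator from Matrigel arrays ran from -0.25 for Lgmn, the asparaginyl endopeptidase that trims cathepsins, to 0.26 for Tpp1, a tripeptidyl peptidase. Ctsd, the main aspartic protease, had differences of -0.02, 0.14 and -0.16 in the order of the 3 comparisons, and Ctss, the cathepsin that cleaves the invariant chain of MHC class II, had -0.07, -0.13 and 0.06. For Ctsa, the carboxypeptidase that protects Neu1 and Glb1, the differences were -0.05, -0.03 and -0.02, and for the carboxypeptidase Ctsz they were -0.04, -0.18 and 0.15. Without Matrigel 3, the differences from Matrigel of the Instigator and Non-instigator arrays were 0.076 and -0.073 for Ctsz and 0.012 and -0.045 for Ctss. The 0.012 of Ctss includes Instigator 4, which read 12.01, above the 11.33 to 11.50 of the other Instigator arrays. Without Instigator 4, the difference of Instigator from Matrigel arrays was -0.13 for Lgmn and 0.085 for Ctsd, and that between the tumour groups was -0.082 for Lgmn, -0.052 for Ctsd and -0.061 for Ctss.

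Ctsb, a cysteine protease with endopeptidase activity, was read by 4 probe sets that differed in sign. Its brightest set gave 0.09 for Instigator against Matrigel arrays, and the other sets 0.35, -0.16 and -0.61. Without Matrigel 3 the brightest set gave 0.0071, and without Instigator 4 as well it gave -0.069. In the set with the lowest difference, Instigator 4 read 8.07, below the 9.48 to 10.07 of the other 13 arrays, while in the brightest set it was the highest array at 11.61. The part of that array's low 5′ signal in this was not tested.

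The glycosidases had median differences of 0.14 for Instigator against Matrigel (5 of 8 above 0), -0.02 for Non-instigator against Matrigel (4 of 8) and 0.12 for Instigator against Non-instigator arrays (7 of 8). Gaa, Gla, Glb1, Gusb and Man2b1 lay higher and Hexa, Naglu and Neu1 lower in the Instigator than in the Matrigel arrays, by values from -0.21 for Naglu to 0.60 for Gaa. Without Instigator 4 and Matrigel 3 the medians were 0.086 (6 of 8), 0.036 (5 of 8) and 0.11 (6 of 8).

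Gaa, the acid glucosidase that breaks down glycogen, read 7.21, 7.39, 6.65 and 7.15 on the Matrigel arrays. It read 7.38, 7.29, 7.67, 8.71 and 7.47 on the Instigator arrays and 7.46, 7.10, 7.32, 7.54 and 7.38 on the Non-instigator arrays. Instigator 4 stood more than a log2 unit above every other array and Matrigel 3 was the lowest, while the remaining 12 arrays overlapped. Instigator arrays were higher than Matrigel arrays by 0.60 ± 0.24 (SE; interval 0.09 to 1.11), or 1.52-fold, with a limma adjusted p of 0.442. The difference was 0.35 without Instigator 4 and 0.20 without both arrays. The probe set is of a type (x_at) whose probes can also match other transcripts, and the second set of Gaa gave 0.25.

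Gusb, the glucuronidase that trims glycosaminoglycans, read 9.70, 9.27, 10.06 and 9.54 on the Matrigel arrays, 9.71, 9.75, 10.09, 10.05 and 9.54 on the Instigator arrays and 10.02, 9.55, 9.38, 9.45 and 9.38 on the Non-instigator arrays. Non-instigator 1 lay well above the rest of its group, at the level of Instigator 3 and Instigator 4. The tumour groups differed by 0.27 ± 0.16 (SE; limma adjusted p 0.813), by 0.39 without Non-instigator 1 and by 0.09 with the mean of the gene's probe sets.

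Neu1, the sialidase that removes terminal sialic acids, read 7.59, 7.78, 8.09 and 7.59 on the Matrigel arrays, 7.63, 7.77, 7.76, 7.55 and 7.63 on the Instigator arrays and 7.59, 7.56, 7.61, 7.60 and 7.47 on the Non-instigator arrays. Matrigel 3 was the highest of all, and the groups overlapped. The difference of Non-instigator from Matrigel arrays was -0.19 ± 0.10 (SE; limma adjusted p 0.986), and without Matrigel 3 it was -0.08. The 3 probe sets of Neu1 ran from -0.19 to 0.09 in that comparison.

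Of the remaining glycosidases, Gla, which removes terminal galactose from globotriaosylceramide, had differences of 0.21, 0.12 and 0.09 in the order of the 3 comparisons. Hexa, the alpha subunit of the hexosaminidase of ganglioside breakdown, had -0.07, -0.20 and 0.14, and Glb1, the acid beta-galactosidase, had 0.20, 0.05 and 0.15. Without Instigator 4 the first and last values of Glb1 were 0.11 and 0.054. Man2b1, the acid mannosidase, had 0.09, 0.07 and 0.02 in its brighter probe set. Its second set gave -0.34, -0.03 and -0.31.

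Sgsh, Hgsnat and Naglu remove or modify the sugars at the end of heparan sulfate chains, in one pathway of stepwise breakdown. The differences of Instigator from Matrigel arrays were 0.51, 0.18 and -0.21 for the 3 genes, and those of Non-instigator from Matrigel arrays were 0.30, 0.26 and -0.13. Matrigel 3 was the highest of the 14 arrays for Naglu, and without it the 2 differences of Naglu were -0.056 and 0.020.

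Sgsh, the sulfamidase of that pathway, had the smallest p of all members for Instigator against Matrigel arrays. It read 6.99, 6.83, 6.10 and 6.90 on the Matrigel arrays, 7.30, 7.06, 7.30, 7.28 and 7.15 on the Instigator arrays and 6.85, 7.15, 7.00, 7.10 and 6.92 on the Non-instigator arrays. Every Instigator array lay above every Matrigel array, Matrigel 3 was by far the lowest, and the Non-instigator arrays lay between and overlapped both groups. The means were 7.22 ± 0.11 (SD, n = 5) and 6.71 ± 0.41 (SD, n = 4), a difference of 0.51 ± 0.15 (SE; interval 0.20 to 0.83) or 1.43-fold, with an unadjusted p of 0.00352 and an adjusted p of 0.439 in limma. Without Matrigel 3 it was 0.31. The Non-instigator difference from Matrigel, 0.30 ± 0.15 (SE), was 0.10 without Matrigel 3. A second probe set of Sgsh gave -0.04 and -0.10 for the 2 comparisons with Matrigel, and the mean of both sets gave 0.24 for Instigator against Matrigel arrays.

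Hgsnat, the membrane enzyme that acetylates the terminal glucosamine, read 7.82, 7.82, 7.73 and 7.89 on the Matrigel arrays, 7.98, 8.17, 8.02, 7.89 and 7.93 on the Instigator arrays and 8.11, 8.13, 8.14, 7.95 and 8.05 on the Non-instigator arrays. All arrays of both tumour groups lay above all Matrigel arrays, but Instigator 4 and Matrigel 4 both round to 7.89, so the gap between those groups was almost nil. The Non-instigator arrays were higher than Matrigel by 0.26 ± 0.08 (SE; interval 0.10 to 0.43), or 1.20-fold, with an unadjusted p of 0.00431 and an adjusted p of 0.986 in limma. The Instigator arrays were higher by 0.18 ± 0.08 (SE; interval 0.02 to 0.35; limma adjusted p 0.456). Without Instigator 4 and Matrigel 3 these were 0.23 and 0.18, and the tumour groups differed from each other by -0.08.

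**Figure D2:**
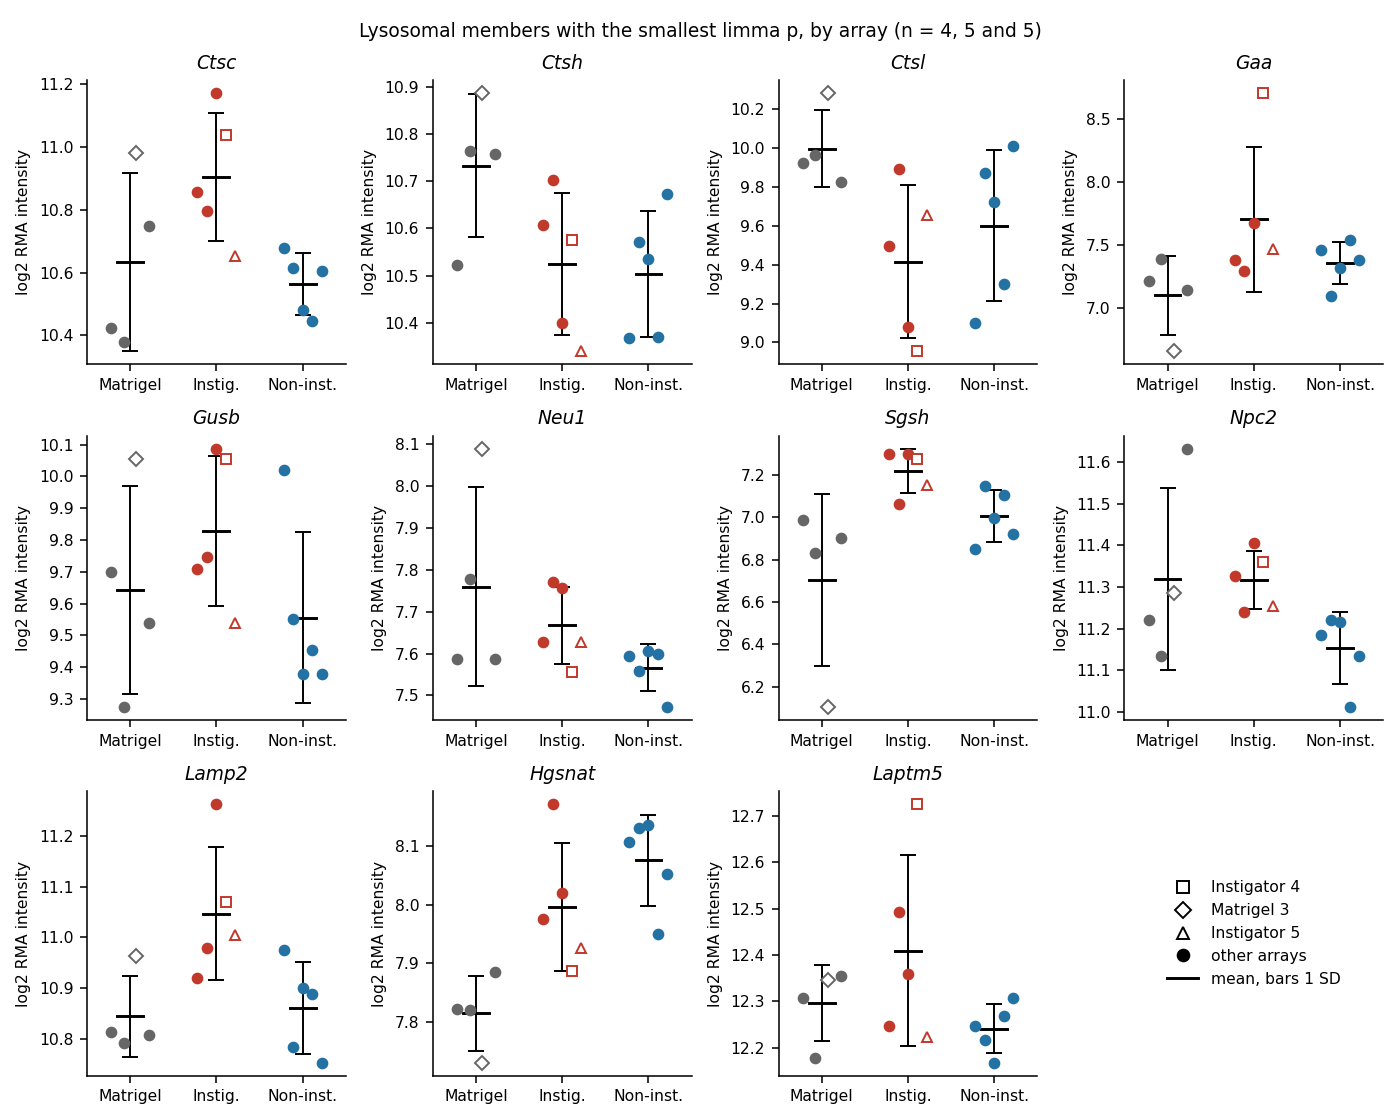
Log2 intensity (y axis) of the 11 members named by the smallest p-values, by group (x axis), with 1 point per array, the group mean as a line and 1 SD as bars. Sgsh and Hgsnat are the members in which no Instigator point lies as low as a Matrigel point, and single arrays such as Matrigel 3 in Sgsh and Instigator 4 in Gaa lie apart from their groups.

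The hydrolases of lipids and of phosphate and sulfate esters, with Npc2, had median differences of -0.0015 (3 of 7 above 0), -0.08 (3 of 7) and 0.16 (6 of 7) in the order of the 3 comparisons. Npc2, the soluble carrier that hands cholesterol to Npc1, read 11.22, 11.13, 11.29 and 11.63 on the Matrigel arrays, 11.33, 11.24, 11.41, 11.36 and 11.25 on the Instigator arrays and 11.18, 11.22, 11.22, 11.01 and 11.13 on the Non-instigator arrays. Every Instigator array lay above every Non-instigator array. The Matrigel arrays overlapped both groups, and Non-instigator 4 lay below every Matrigel array. The tumour groups differed by 0.16 ± 0.09 (SE; interval -0.03 to 0.36; limma adjusted p 0.813). The second probe set of Npc2 gave -0.24, and the mean of the sets -0.039. Instigator 4 stood apart in that second set, at 10.03. The rest of its group read between 11.18 and 11.47 there, overlapping the Non-instigator range of 11.20 to 11.34. The part of Instigator 4 in the -0.24 was not tested. Lipa, the acid lipase that frees cholesterol from its esters, had 0.16, 0.09 and 0.07, and the acid ceramidase Asah1 had -0.02, -0.18 and 0.16. Ppt1, which removes palmitate from proteins, had -0.09, -0.10 and 0.01. The sulfatidase Arsa had 0.11, -0.08 and 0.19, and the acid phosphatase Acp2 had -0.08, 0.03 and -0.11. Without Matrigel 3, the differences from Matrigel of the Instigator and Non-instigator arrays were 0.092 and -0.065 for Asah1, 0.039 and 0.028 for Ppt1, 0.029 and -0.16 for Arsa and 0.019 and 0.13 for Acp2. Without Instigator 4, Acp2 differed by -0.24 from Matrigel and by -0.27 between the tumour groups. Without both arrays, Lipa differed by 0.057 from Matrigel in the Instigator arrays, and the medians of the role were 0.014, 0.027 and 0.13.

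The membrane proteins had median differences of 0.08 (8 of 10 above 0), 0.02 (6 of 10) and 0.05 (8 of 10). Without Instigator 4 and Matrigel 3 they were -0.01 (4 of 10), -0.03 (3 of 10) and 0.01 (5 of 10). Lamp2, a glycoprotein that lines the membrane and serves as receptor in chaperone-mediated autophagy, read 10.81, 10.79, 10.96 and 10.81 on the Matrigel arrays, 10.92, 10.98, 11.26, 11.07 and 11.00 on the Instigator arrays and 10.98, 10.78, 10.90, 10.89 and 10.75 on the Non-instigator arrays. All but 1 of the Instigator arrays lay above every Matrigel array, and Instigator 3 was the highest. The Instigator arrays were higher than Matrigel by 0.20 ± 0.08 (SE; interval 0.02 to 0.38; limma adjusted p 0.449) and higher than Non-instigator by 0.19 ± 0.08 (SE; interval 0.02 to 0.36; limma adjusted p 0.813). Non-instigator and Matrigel arrays differed by 0.02. The other 3 probe sets of Lamp2 gave -0.01, 0.12 and 0.19 for Instigator against Matrigel arrays.

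Laptm5, a transmembrane protein of blood cells that helps to degrade antigen receptors, read 12.31, 12.18, 12.35 and 12.35 on the Matrigel arrays, 12.25, 12.49, 12.36, 12.72 and 12.22 on the Instigator arrays and 12.25, 12.22, 12.17, 12.27 and 12.31 on the Non-instigator arrays. Instigator 4 was the highest array, and the groups overlapped. The tumour groups differed by 0.17 ± 0.09 (SE; limma adjusted p 0.813), by 0.09 without Instigator 4 and by -0.015 with the mean of the probe sets. The other sets of Laptm5 gave -0.18 and -0.03. Instigator 4, the highest array in the brightest set, was the lowest in both of these, at 9.68 and 9.83.

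Cln3, the membrane protein mutated in juvenile neuronal ceroid lipofuscinosis, had its extremes on the arrays that stood apart. It read 7.84, 7.76, 6.69 and 7.52 on the Matrigel arrays, 7.84, 7.75, 7.58, 8.72 and 7.61 on the Instigator arrays and 7.86, 7.75, 7.86, 7.72 and 7.57 on the Non-instigator arrays, and was singled out after its values were seen. Instigator arrays differed from Matrigel by 0.45 ± 0.24 (SE; limma adjusted p 0.53), and by -0.01 without Instigator 4 and Matrigel 3.

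For the other membrane proteins, the differences are given in the order of the 3 comparisons. Lamp1, the companion of Lamp2, had 0.04, -0.03 and 0.07, and Scarb2, which carries glucocerebrosidase to the lysosome, had 0.05, 0.02 and 0.03. The cholesterol exporter Npc1 had -0.02, -0.11 and 0.09, and the cation channel Mcoln1 had 0.19, 0.17 and 0.02. Cd68, a glycoprotein abundant in macrophages, had -0.15, -0.17 and 0.01, and Laptm4a had 0.02, 0.07 and -0.05. Matrigel 3 was the lowest array for both Mcoln1 and Laptm4a. Without it, the differences from Matrigel of the Instigator and Non-instigator arrays were -0.0050 and -0.024 for Mcoln1, and -0.17 and -0.12 for Laptm4a. Without Instigator 4, Npc1 differed by -0.12 from Matrigel and by -0.017 between the tumour groups.

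**Figure D3:**
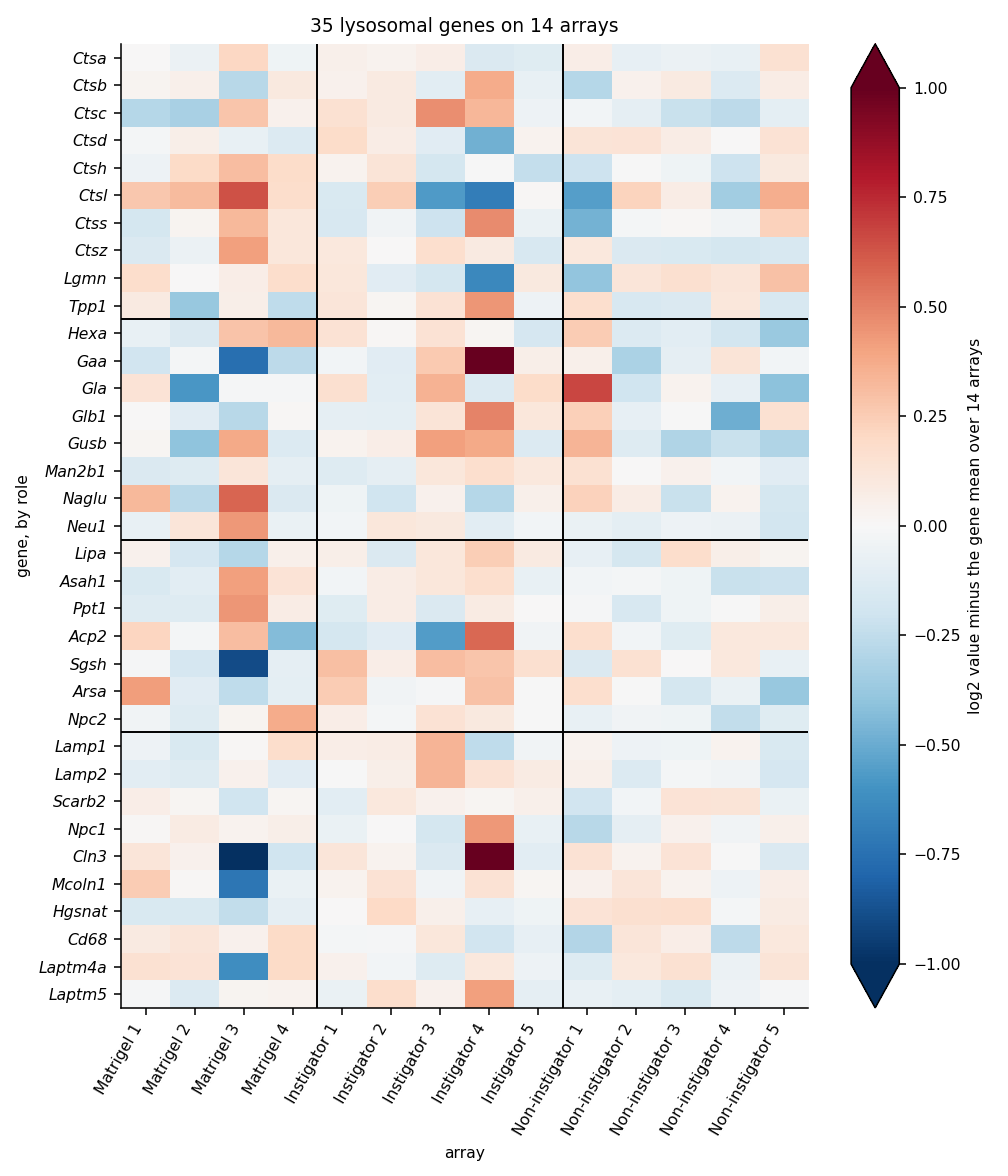
Log2 value minus the gene's mean over 14 arrays (colour) for the 35 measured lysosomal genes (rows, by role) on each array (columns). Instigator 4 and Matrigel 3 hold the strongest colours in both directions, and no group forms a block of 1 colour.

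Over the arrays, members scattered in both directions. The median deviation of the 35 members from their own means ran from -0.11 to 0.04 on the Matrigel arrays, from -0.03 to 0.14 on the Instigator arrays and from -0.05 to 0.03 on the Non-instigator arrays. Instigator 4 was the highest array for 11 members and the lowest for 6, and Matrigel 3 was the highest for 8 and the lowest for 8. Over all genes, Instigator 4 was the highest for 21.1% and the lowest for 21.1%, and Matrigel 3 was the highest for 34.0% and the lowest for 12.9%.

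Probe sets of one gene did not always give the same direction. Of 17 members with 2 or more probe sets, 9 had sets on both sides of 0 for Instigator against Matrigel arrays (Acp2, Ctsb, Gusb, Lamp2, Laptm5, Lipa, Man2b1, Neu1 and Sgsh). The other 2 comparisons had 8 such members each. For Non-instigator against Matrigel these were Ctsb, Gla, Lamp2, Laptm5, Lipa, Man2b1, Neu1 and Sgsh. For Instigator against Non-instigator they were Acp2, Ctsb, Gusb, Laptm5, Man2b1, Neu1, Npc2 and Scarb2. Of the members named here, Acp2, Ctsb, Gusb, Laptm5, Man2b1, Neu1 and Npc2 had a set besides the brightest in which Instigator 4 was the lowest array. Gla, Lamp2, Lipa, Scarb2 and Sgsh had none. The part of that array in the differing signs was not tested. Over single probe sets, 8, 2 and 2 of the members' 61 had an unadjusted p under 0.05 in the 3 comparisons, beside 2324, 477 and 1268 of all 22626.

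**Figure D4:**
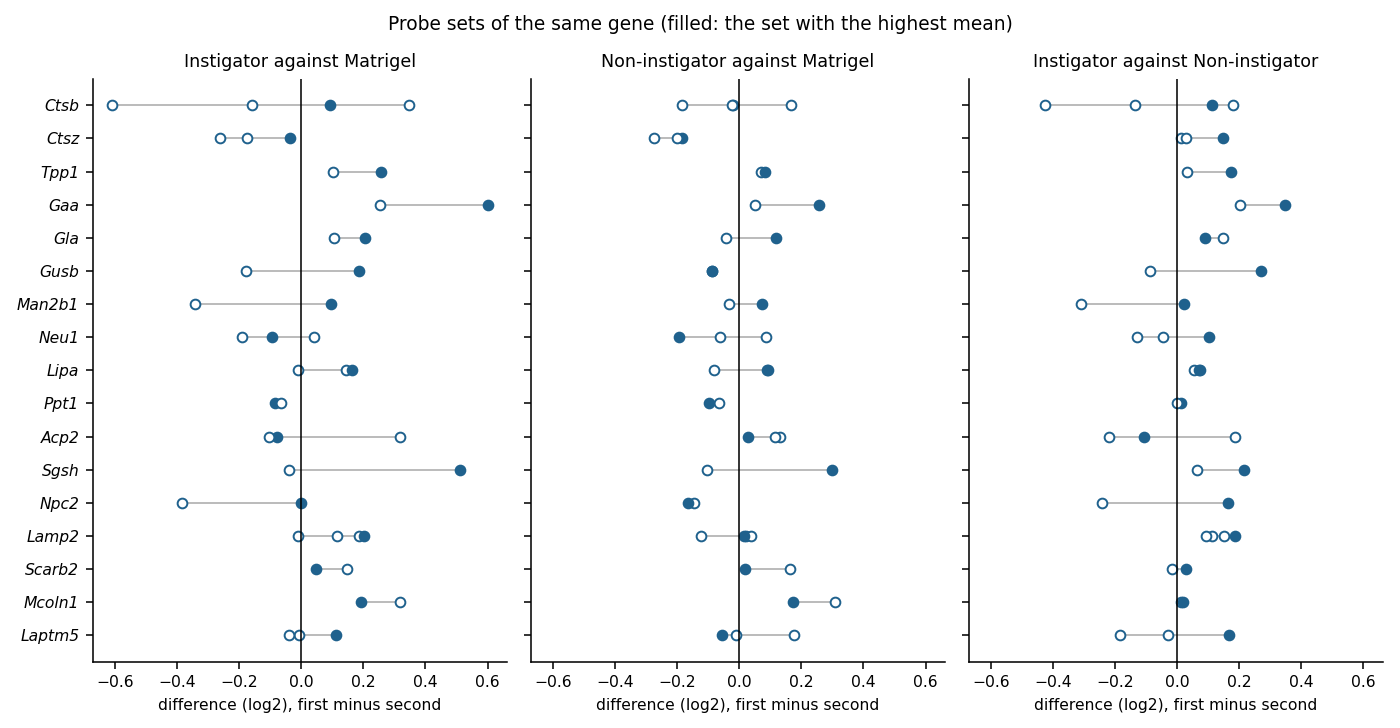
Log2 difference (x axis) of each probe set of the members that have 2 or more (y axis, 1 row per gene) in the 3 comparisons, with the brightest set of each gene marked. For Instigator against Matrigel arrays, the points of 9 of 17 genes fall on both sides of 0.

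The E-box classes were compared as a description, with the split chosen after the values were seen. The 13 members with CACGTG in their window had a median difference of 0.11 for Instigator against Matrigel (8 above 0), and the 17 members whose window lacks it had 0.02 (9 above 0). For Non-instigator against Matrigel the medians were 0.05 (7 above 0) and -0.07 (7 above 0), and between the tumour groups they were 0.07 (8 above 0) and 0.10 (15 above 0). The holders spread from Ctsl at -0.58 to Gaa at 0.60 in the first comparison.

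Other genes of the lysosomal system were read from 5 lists drawn up by function, with 63 measured genes. Of these, 0 passed limma's test in any comparison, and 6, 3 and 3 had an unadjusted p under 0.05 in the order of the comparisons, beside 8.80%, 1.96% and 5.33% of all genes. Of 16 measured subunits of the vacuolar proton pump, which acidifies the lysosome, 14 lay above 0 for Instigator against Matrigel (median 0.11), 6 for Non-instigator against Matrigel (-0.03) and 12 for Instigator against Non-instigator (0.15). Without Instigator 4 the first and last medians were 0.05 and 0.07. Its membrane subunit Atp6v0d1 differed by 0.39 ± 0.11 (SE) from Matrigel in the Instigator arrays, with an unadjusted p of 0.00390 and an adjusted p of 0.439 in limma, and the cytosolic subunit Atp6v1b2 differed by 0.36 ± 0.13 (SE) between the tumour groups, with an adjusted p of 0.813.

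Of 18 measured genes of mannose 6-phosphate sorting and lysosomal trafficking, 14, 9 and 14 lay above 0 (medians 0.06, -0.0025 and 0.09). Lyst, which governs the size of lysosomes and granules, differed from Matrigel by 0.48 ± 0.12 (SE) in the Instigator and by 0.35 ± 0.12 (SE) in the Non-instigator arrays, with limma adjusted p of 0.439 and 0.986. Rab7, the GTPase of late endosomes, differed by 0.26 and 0.21. Of 17 further hydrolases and activators, 11, 6 and 11 lay above 0 (medians 0.05, -0.04 and 0.05). Among these, the sulfatase Galns differed by 0.30 for Instigator against Matrigel, and Acp5, the tartrate-resistant phosphatase, by -0.62 ± 0.21 (SE) between the tumour groups (limma adjusted p 0.813).

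Of 6 cathepsin inhibitors, 2, 3 and 2 lay above 0 (medians -0.04, 0.02 and -0.05). Stfa3, a stefin of myeloid cells, stood apart from the rest of them with differences from Matrigel of 1.18 ± 0.34 (SE) in the Instigator and 1.00 ± 0.34 (SE) in the Non-instigator arrays, and limma adjusted p of 0.439 and 0.986. Stefins are a family of close copies, so the probe set may read more than 1 of them. Of 6 transcription factors of lysosomal genes, 2, 3 and 3 lay above 0 (medians -0.12, -0.05 and 0.01). Tfeb, which binds the E-box described above, differed by 0.11, 0.03 and 0.08, and Zkscan3, a repressor of the same network, by -0.47, 0.05 and -0.52 (limma adjusted p 0.439, 0.989 and 0.813).

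Marker genes of marrow cell types are set beside these values, with neutrophils, macrophages and dendritic cells first as the types rich in lysosomes or granules. The mean over 15 neutrophil and granulocyte precursor markers lay between 11.38 and 11.66 on the Matrigel arrays, 11.64 and 11.89 on the Instigator arrays and 11.43 and 11.81 on the Non-instigator arrays, and 14 of the 15 genes lay above 0 for Instigator against Matrigel (median 0.18). The mean over 14 of 16 macrophage and monocyte markers lay between 7.33 and 7.69, 7.30 and 8.01, and 7.27 and 7.55 respectively, with Instigator 4 the highest. The mean over 12 of 14 dendritic cell markers lay between 8.51 and 8.92, 7.86 and 8.55, and 7.96 and 8.79, and 11 of the 12 genes lay below 0 for Instigator against Matrigel (median -0.44). Over all genes, 45.9% lay above 0 in that comparison. Of the 41 measured genes of these 3 lists, 0 passed limma's test. An unadjusted p under 0.05 was reached by 15, 3 and 4 of them in the order of the comparisons, beside 8.80%, 1.96% and 5.33% of all genes.

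Markers of other cell types differed in sign between groups as well. Of 10 basophil, mast cell and eosinophil markers, 9 lay above 0 for Instigator against Matrigel (median 0.46) and 10 for Non-instigator against Matrigel (0.39), with list means between 7.37 and 8.12 on the Matrigel, 8.05 and 8.71 on the Instigator and 8.07 and 8.55 on the Non-instigator arrays. Matrigel 3 was the array at 7.37, and the other Matrigel arrays lay between 7.81 and 8.12. Of 13 B lineage markers, 12 lay below 0 for Instigator against Matrigel (median -0.48) and 12 for Instigator against Non-instigator (-0.32), with list means between 8.39 and 8.91, 7.45 and 8.63, and 7.86 and 9.04. Plasma cell markers lay below 0 in 7 of 7 genes in the same comparisons (medians -0.47 and -0.35), with list means between 9.89 and 10.24, 9.25 and 10.07, and 9.12 and 10.43. Over all genes, 45.9%, 38.3% and 58.2% lay above 0 in the order of the comparisons. Of the genes of these lists, 0 passed limma's test.

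In the comparison of the tumour groups, in which 27 of 35 members lay above 0, 9 of 9 NK cell markers (median -0.42) and 11 of 11 T cell markers (median -0.30) lay below 0. Of all genes, 58.2% lay above 0 in that comparison, and without Instigator 4 the members above 0 numbered 22 of 35. Of the NK cell markers 6 were lower at an unadjusted p under 0.05, beside 2.92% of all genes, and 0 passed limma's test. Their list means lay between 9.58 and 9.97 on the Matrigel, 9.27 and 9.93 on the Instigator and 9.74 and 10.27 on the Non-instigator arrays, and those of the T cell markers between 7.90 and 8.22, 7.28 and 8.02, and 7.52 and 8.69. Over all 11 marker lists with 111 measured genes, 0 passed limma's test, and 25, 5 and 15 had an unadjusted p under 0.05. The shares of all genes were 8.80%, 1.96% and 5.33%. The part of these cell types in the members' differences was not tested.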

How the data were processed

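Sorted Sca1+/cKit- marrow cells of 14 mouse samples were hybridised to 1-colour Affymetrix arrays (4 Matrigel, 5 Instigator, 5 Non-instigator). The deposited values are linear intensities, which the authors made by RMA (affy, R 2.11.0), per the submitters' processing notes. RMA summarises and normalises all arrays together, which can shrink differences. No detection calls or batches were available, and array number limits the precision.

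Intensities were put on the log2 scale and 64 control probe sets left out. Of 22626 probe sets, 20380 had 1 gene symbol in the platform annotation, 691 several and 1555 none. Each gene was represented by the brightest of its probe sets over all arrays. One limma 3.58.1 model (R 4.3.3; lmFit, eBayes) held the 3 groups, with Benjamini-Hochberg adjustment over all probe sets and a threshold of 0.05, and was tested on simulated data. Values in every array are given for the 5 members with the smallest p in each comparison. Of each other list, up to 3 genes are named with their differences only. Members, lists and rules were chosen with earlier results of these data known. Array numbers were checked as pairs. Promoter windows came from RefSeq (GRCm38.p6). Alternatives covered normalisation, array weights, probe set choice, filters, pairing, the label of Instigator 5 and leaving out arrays.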

Additional observations from a re-analysis of the deposited data

Results flagged for a closer look

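Each of the 35 members was checked in each group for an array far from the others of its group, in 105 checks, and the members' median in 3 more. Of these 108 checks, 9 met the criterion, all of them for single members. Chance marks about 1 in 20 groups in this way. On Instigator 4, Ctss read 12.01 against 11.33 to 11.50 on the other Instigator arrays, Gaa 8.71 against 7.29 to 7.67, and Cln3 8.72 against 7.58 to 7.84. On Non-instigator 1, Ctsz read 11.61 against 11.33 to 11.36, Lgmn 6.29 against 6.80 to 6.97, and Gusb 10.02 against 9.38 to 9.55. On Matrigel 3, Lamp2 read 10.96 against 10.79 to 10.81, Scarb2 9.01 against 9.23 to 9.28, and Laptm4a 9.14 against 9.90 to 9.96.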

How the results depend on the processing

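The count of members past limma's threshold was 0 under all 24 alternatives in each of the 3 comparisons, and the members' smallest adjusted p over them was 0.25, 0.752 and 0.316. Of the 72 medians of the members so recomputed, 66 stayed within the spread between arrays. Some of these could not move and say nothing about stability. Leaving out an array of the third group, fitting only the 2 groups compared, or adding an intensity trend does not change a difference of means. Centring each array on its median moved that of Instigator against Matrigel to 0.12 and that of Non-instigator against Matrigel to 0.025. Over all genes, the medians with that centring were 0.060 and 0.020. For Instigator against Non-instigator the members' median was 0.033 with array weights and 0.035 without Instigator 4 (also without Matrigel 3 as well). It was 0.022 where probe sets of a gene were averaged. Over all genes, these medians were 0.023, 0.022 and 0.022. For the members, leaving out 1 array at a time gave medians of 0.03 to 0.08, -0.08 to -0.02 and 0.035 to 0.11. Averaging also reversed Laptm5 (-0.015) and Npc2 (-0.039) for Instigator against Non-instigator. In the sets averaged in, Instigator 4 read 10.03 for Npc2 and 9.68 and 9.83 for Laptm5, the lowest of the 14 arrays in each. The part of that array in the reversals was not tested. Members at an unadjusted p under 0.05 numbered 2 to 8, 1 to 7 (7 without Matrigel 1) and 1 to 5. The share of all genes moved too, from 5.87% to 11.4%, 0.775% to 5.45% (5.45% without Matrigel 1) and 2.94% to 11.7%. Array numbers did not pair the arrays, since same-numbered arrays correlated at -0.20 to 0.27 and 2 of 14 correlated best with their own number. With the replicate number as a block, 8, 2 and 2 members had an unadjusted p under 0.05 (10.4%, 2.32% and 5.48% of all genes), 0 passed limma's test, and the medians were 0.05, -0.03 and 0.09. The number of arrays sets the width of the intervals given above.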
